A study of Mus musculus with 3 samples.

Results

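Nuclear genes of the mitochondrial respiratory chain were followed across cell classes and libraries of mouse skin. Members were the genes whose symbol starts with Nduf, Sdh with a, b, c or d, Uqcr, Cox4, Cox5, Cox6, Cox7, Cox8 or Atp5, which gave 98 of the 32285 genes in the matrices. By role, 37 were counted to complex I, 4 to complex II, 8 to complex III, 20 to complex IV and 17 to complex V, with 8 complex I and 4 complex II assembly factors. Ndufa4 and Ndufa4l2 were placed with complex IV, where the Ndufa4 protein is now known to sit. The members lie on 19 chromosomes.

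Single cells came from dorsal whole skin of female C3H/HeN mice aged 25 weeks. The Neg library was from mice given vehicle, the AA library from an alopecia areata model, in which skin-draining lymph node cells of affected donors are transferred to recipients, and the AA+Ab library from the same model given an antibody that neutralizes CXCL12. Each group was 1 library of skin pooled from 7 to 8 mice, so no difference between groups has a replicate check and none was tested. The files held 6965 barcodes and 121289374 UMIs for Neg, 10879 and 137290217 for AA, and 10507 and 141998364 for AA+Ab. Cells with at most 10% mt- UMIs and at least 200 genes numbered 6582, 10433 and 9832, with a median of 13694.5, 11177 and 11371 UMIs. Between the kept cells, Neg and AA shared 16 barcodes, Neg and AA+Ab 14, and AA and AA+Ab 23.

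As background, complexes I and II feed electrons from NADH and succinate into ubiquinone, complex III passes them to cytochrome c, complex IV reduces oxygen, and complex V makes ATP from the proton gradient. Most subunits are encoded in the nucleus and imported, while a small core of complexes I, III, IV and V is encoded by mitochondrial DNA and read here from mt- genes. In the growing hair follicle, the matrix at the base of the bulb holds dividing cells that give rise to the hair shaft and inner root sheath.

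Over all cells, the members summed to 22920.2 CPM (UMIs scaled to a total of 1000000 in the same cells) in Neg, 19344 in AA and 22523 in AA+Ab, or 2.29%, 1.93% and 2.25% of all UMIs. The AA library was thus the lowest, and the other libraries lay close together. Because a 3′ library gives a transcript 1 tag whatever its length, CPM levels of genes were set side by side without division by length. Complex V held the most UMIs, with 7364, 6184 and 7220.4 CPM in Neg, AA and AA+Ab, followed by complex I with 6358, 5350.2 and 6196 and complex IV with 6174, 5263 and 6174 CPM. Complex III held 2427, 2042 and 2338 CPM, and complex II, the only complex with no subunit encoded by mitochondrial DNA, 288, 245 and 291 CPM. The median member of complex V reached 378 CPM and that of complex IV 332 CPM, against 145 CPM in complex I, 60.1 CPM in complex II and 20.6 CPM among complex I assembly factors.

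With the libraries pooled, the most abundant member was Cox4i1, the widely used form of the complex IV subunit 4, with 1010.4, 999 and 1156 CPM in Neg, AA and AA+Ab. Cox8a, a small complex IV subunit, followed with 789, 570.0 and 721 CPM, then Atp5g2, which encodes the membrane ring of complex V, with 621, 559.6 and 701 CPM. Atp5h, in the stalk of complex V, gave 636, 559.7 and 642 CPM and Uqcrh, the hinge protein of complex III, 615, 573 and 628 CPM. The order of the pooled values does not hold in every library, since Uqcrh was above Cox8a in AA and Atp5h above Atp5g2 in Neg. These 5 genes together held 16.7% of the members' UMIs. Cox4i1 is the exception among them in that its AA level was near that in Neg. Several members, among them Atp5g2 with its sister genes Atp5g1 and Atp5g3, have near-identical copies or pseudogenes that could split their UMIs, so that their single-gene levels are uncertain.

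Clusters were made without the members and without mt- genes and named from marker genes, so that the members' levels had no part in the naming. Of 28 clusters, 20 took a name. The hair matrix-like class was 1 cluster with 365, 453 and 552 cells in Neg, AA and AA+Ab, in which 8 of 8 hair matrix markers passed and whose leading genes include Wif1 and Shh. The 8 markers summed to 2049, 2416 and 2265 CPM there and to 56.0, 81.2 and 65.7 CPM in epidermis-like cells, with Lef1 the most abundant in the former. The epidermis-like class joined basal-like and suprabasal-like clusters and held 2838, 4843 and 3932 cells.

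Among the classes and unnamed clusters with at least 50 cells in every library, member levels were highest in those of hair-forming cells. Cluster 3, led by Ntn1 and Sox5 and tied between hair matrix and inner root sheath markers, had the highest sums, at 30001, 28524 and 29901 CPM in Neg, AA and AA+Ab. Inner root sheath-like cells gave 29472, 27387 and 28811 CPM and hair matrix-like cells 29123, 26402 and 28054 CPM. Cluster 11, led by Krt35, gave 27983, 23905 and 26096 CPM and cluster 16, led by Csta1 and Tchh, 24816, 22599 and 22654 CPM. Against epidermis-like cells of the same library, the mean ratio was 1.71 for cluster 3, 1.65 for the inner root sheath-like class, 1.61 for the hair matrix-like class, 1.501 for cluster 11 and 1.35 for cluster 16. The mean log2 ratios of the first 3 were 0.77, 0.72 and 0.69 with an SD over libraries of 0.08, 0.07 and 0.07, so that the steps between neighbours were small, though of the same order in 3 of 3 libraries. Of 7 cycling markers, 7 passed in cluster 3, 5 in the inner root sheath-like and 7 in the hair matrix-like cluster. In clusters 11 and 16, 0 passed. Median UMIs were 24633, 22025 and 23824 in the former and 21156.5 and 17744 in clusters 11 and 16. The part of division in these levels was not tested.

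The cycling-like class outside the matrix stood at 1.24 times epidermis, and the upper hair follicle-like (1.02), outer bulge and root sheath-like (1.01) and suprabasal-like (1.07) cells lay close to it. T cell-like (0.875) and dendritic cell or macrophage-like (0.847) cells were below epidermis in every library. Dermal fibroblast-like cells were above epidermis in Neg and below it in AA and AA+Ab, with log2 ratios of 0.09, -0.43 and -0.16. Counting only these classes, 40 of the 98 members had their highest CPM in cluster 3, 19 in inner root sheath-like, 15 in hair matrix-like cells and 9 in cluster 16, while 2 (Cox7b2 and Cox8c) had too few UMIs to be placed. Of the 96 placed these are 41.7%, 19.8%, 15.6% and 9.38%, beside 8.37%, 5.70%, 5.06% and 10.5% of the 18310 genes with at least 50 UMIs, so that cluster 16 held no more than the background. Of the classes with fewer cells, skeletal muscle-like cells (51, 58 and 41 cells) exceeded all of these at 47705.5, 57215 and 59861 CPM. Sebaceous gland-like cells (25, 97 and 67) at 29008, 28118 and 34326 CPM and melanocyte-like cells (40, 60 and 70) at 29263, 23329.9 and 28692 CPM reached levels near those of hair-forming cells, so a high level was not confined to the hair-forming classes.

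**Figure D1:**
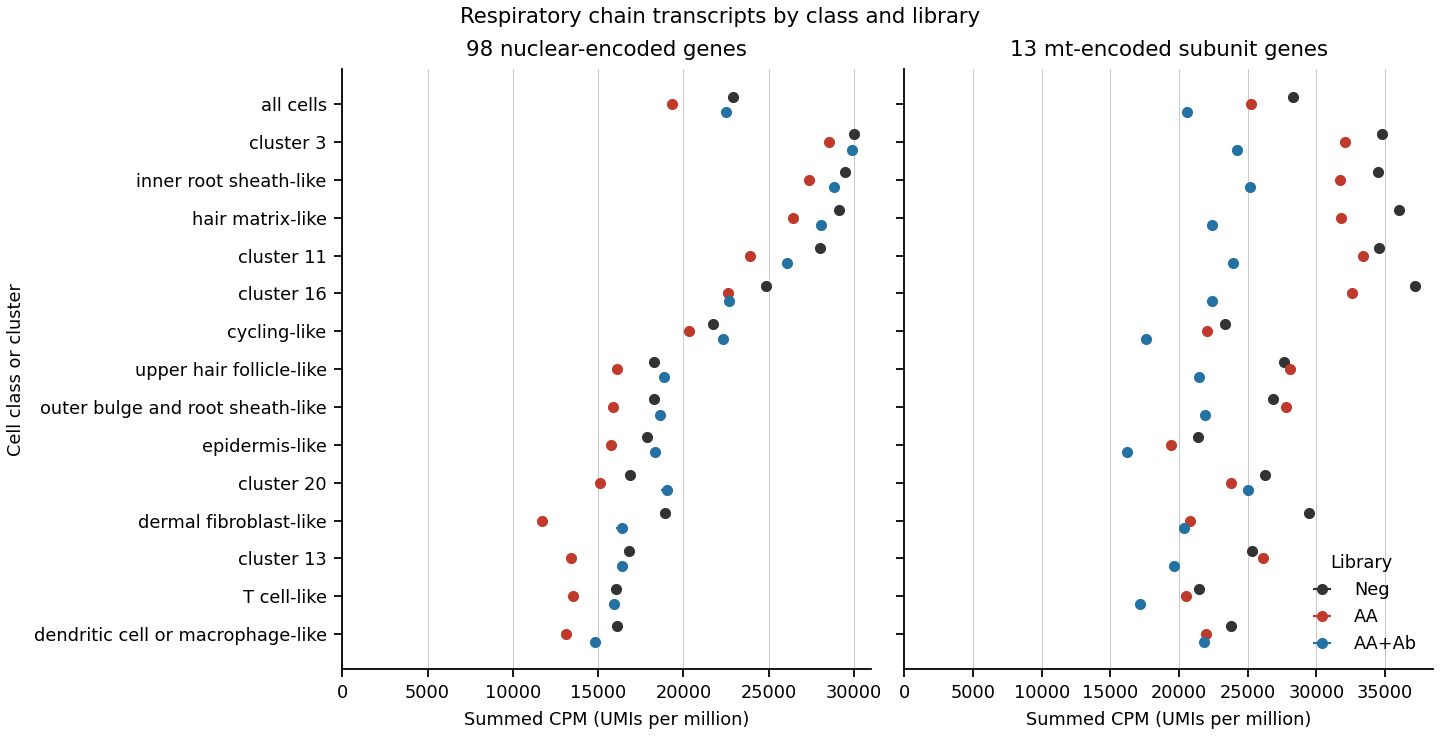
Summed CPM of the 98 nuclear members (left) and of 13 mt-encoded subunit genes (right) in each class or unnamed cluster with at least 50 cells in every library, 1 point per library with exact 95% Poisson intervals that are mostly narrower than the point. Cluster 3, inner root sheath-like and hair matrix-like cells lie between 26402 and 30001 CPM for the nuclear members, and epidermis-like cells between 15765.5 and 18319.6 CPM.

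The comparison of hair matrix with epidermis asks how far the proliferating base of the follicle differs from the surface epithelium within the same library. Hair matrix-like cells gave 29123, 26402 and 28054 member CPM in Neg, AA and AA+Ab, and epidermis-like cells 17855, 15765.5 and 18319.6 CPM. Every hair matrix-like value lay above every epidermis-like value. The log2 ratio was 0.71 in Neg (95% interval 0.70 to 0.71), 0.74 in AA (95% interval 0.74 to 0.75) and 0.61 in AA+Ab (95% interval 0.61 to 0.62), a mean of 0.69 ± 0.07 (SD, n = 3 libraries). The intervals cover counting error only. By CPM the typical gene was also higher in hair matrix-like cells. The median log2 ratio was 0.45 over the 9431 genes with at least 50 UMIs in both classes and 0.82 over the 92 such members. Cell by cell, 94.8%, 94.5% and 94.0% of hair matrix-like cells were above the epidermis-like median in Neg, AA and AA+Ab, and 0.423%, 1.18% and 1.75% of epidermis-like cells were above the hair matrix-like median.

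All complexes had a mean ratio above 1, to be read beside the median log2 ratio of 0.45 over all genes with at least 50 UMIs in both classes. Complex II had the largest mean log2 ratio of the 5, at 0.91 ± 0.07 (SD), with 364, 353 and 392 CPM in hair matrix-like against 204, 180.3 and 206 CPM in epidermis-like cells of Neg, AA and AA+Ab. Complex V followed at 0.78 ± 0.06 and complex I at 0.68 ± 0.08, and complexes IV and III were at 0.60 ± 0.06 and 0.59 ± 0.09. Complex I assembly factors, which build the complex but do not stay in it, reached 1.07 ± 0.11, and complex II assembly factors 0.67 ± 0.04. The shares of the complexes among member UMIs were similar in both classes: complex V held 33.0% in hair matrix-like and 31.1% in epidermis-like cells of Neg.

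Other properties of the hair matrix-like cluster differed together with the members. The 7 of 7 cycling markers summed to 4389, 4308.5 and 4906 CPM there and to 194, 132 and 217 CPM in epidermis-like cells, with Stmn1 the most abundant and none at 0. Only 7, 12 and 18 hair matrix-like cells had no UMI of a cycling marker other than Stmn1, which was left out of this count. Over these cells the mean log2 ratio was 0.44. For complex II assembly factors the direction was reversed in these cells. Median UMIs were 24660, 22699 and 24764 against 12831.5, 11248 and 11268.5. In cells of 15000 to 30000 UMIs of both classes, a range chosen after seeing the data, the mean log2 ratio was 0.78. Keratins took 0.404%, 0.405% and 0.422% of UMIs in hair matrix-like and 2.48%, 2.46% and 2.55% in epidermis-like cells. The dermal fibroblast list summed to 817, 1047 and 1049 CPM in hair matrix-like cells, of which Dcn gave 809, 1038 and 1045, while Col1a1 was at 0.395, 1.01 and 0.360 and Col3a1 at 0.494, 0.737 and 0.360 CPM. The inner root sheath list, of which 2 of 8 markers passed in this cluster, summed to 795, 752 and 858 CPM in hair matrix-like cells, with Krt25 the most abundant. In epidermis-like cells it summed to 41.3, 25.4 and 43.4 CPM. The part of division in the difference was not tested beyond these values.

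Single genes were tested with edgeR's quasi-likelihood test on UMIs summed by library and class, with library as a block, over 15166 genes. At a Benjamini-Hochberg adjusted p under 0.05, 56 of the 94 members tested were higher in hair matrix-like cells (59.6%, against 38% of all genes tested and 37.1% of genes not used in clustering) and 16 were lower (17.0%, against 39.2% and 39.5%). Their median log2 change was 0.33, beside -0.01 over all genes tested. Cox4i2, Cox7b2, Cox8b and Cox8c did not pass the filter on low counts. These values are relative to TMM scaling, which sets the typical gene near 0. With scaling to total UMIs alone, chosen after seeing the data, the median of all genes moved by 0.48 to 0.47 and that of the members to 0.82. Then 84 of 94 members were higher (89.4%, against 53.5% of all genes) and 4 lower (4.26%, against 25.1% of all genes and 24.7% of genes not used in clustering). Of the 16 members lower under TMM, 10 had a log2 change above 0 with total UMIs, 6 of them called higher.

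Without any fit, 86 of the 92 members with at least 50 UMIs in both classes had the higher CPM in hair matrix-like cells of all 3 libraries (93.5%, beside 62.4% of the 9431 genes with as many UMIs), and 3 had the lower CPM in all 3 (3.26%, beside 26.8%). Under TMM, 12 of 17 complex V members, 11 of 16 of complex IV, 4 of 8 of complex III, 3 of 4 of complex II and 18 of 37 of complex I were called higher, to be read beside the 38% of all genes. The shares of complexes I and III were the nearest to it. Called lower were 7 of 37 in complex I, 0 of 4 in complex II, 3 of 8 in complex III, 4 of 16 in complex IV and 2 of 17 in complex V, beside 39.2% of all genes. Complex I had a median log2 change of 0.13, beside 0.38 for complex V and 0.39 for complex IV. With total UMIs, 17 of 17 complex V, 12 of 16 complex IV, 6 of 8 complex III, 4 of 4 complex II and 33 of 37 complex I members were called higher, beside 53.5% of all genes. In complex IV 3 members and in complex I 1 were then called lower, beside 25.1%. Of the 8 complex I assembly factors, 6 were called higher and none lower under TMM, and 8 higher with total UMIs. Of the 4 complex II assembly factors, 2 and then 4 were called higher.

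The member that stood furthest towards the hair matrix was Cox6b2 (ENSMUSG00000051811, GRCm38 chr7:4751792-4753094), best known as the testis form of the complex IV subunit 6b. It had 24.8, 23.9 and 21.9 CPM in hair matrix-like and 2.02, 1.40 and 1.99 CPM in epidermis-like cells of Neg, AA and AA+Ab. The edgeR log2 change was 3.23 ± 0.15 (SE), with an adjusted p of 1.73e-07, higher in 3 of 3 libraries. Ndufaf6, an assembly factor of complex I, had 32.3, 30.6 and 31.2 against 6.87, 6.19 and 7.42 CPM, a log2 change of 1.72 ± 0.10 (adjusted p 7.52e-07). Ndufc2, a membrane-arm subunit of complex I, had 386, 373 and 429.6 against 112, 93.7 and 121 CPM (log2 1.38 ± 0.07, adjusted p 3.34e-07). Each of these genes was well apart between the classes, with no overlap of libraries.

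Atp5mpl, a small accessory subunit of complex V, had 392, 311 and 335 against 129.7, 105 and 124 CPM, and its log2 change was 1.05 ± 0.07 (adjusted p 3.01e-06). Ndufaf4, which helps build complex I, had 56.5, 57.9 and 59.2 against 20.4, 17.6 and 22.2 CPM (log2 1.05 ± 0.08, adjusted p 5.21e-06). Ndufa4 had 579, 538 and 594 CPM in hair matrix-like and 211, 153 and 249 CPM in epidermis-like cells, a log2 change of 1.03 ± 0.10 (adjusted p 1.79e-05). All 3 genes were higher in 3 of 3 libraries, and the epidermis-like value of Ndufa4 was lowest in AA.

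The opposite pattern was clearest for Ndufa4l2 (ENSMUSG00000040280, GRCm38 chr10:127514967-127517154), the paralog of Ndufa4 that is known to be induced under low oxygen. It had 17.9, 20.2 and 22.9 CPM in hair matrix-like and 354, 388 and 436 CPM in epidermis-like cells, and 72.8% of its UMIs lay in the epidermis-like class. The edgeR log2 change was -4.76 ± 0.08 (SE, adjusted p 7.88e-09), lower in 3 of 3 libraries, and -4.27 with total UMIs. Levels were higher still in cluster 20, led by Krt24, at 604, 485 and 800.2 CPM and in cycling-like cells at 449, 565 and 539.7 CPM. In cluster 17, led by interferon-induced genes, the level was above that of epidermis-like cells in AA (707 CPM) and AA+Ab (734) but below it in Neg, where the cluster held 8 cells. The paralogs thus ran in opposite directions between the same classes.

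Cox7a2l (ENSMUSG00000024248), which links complexes III and IV into supercomplexes, had 260.2, 274 and 315 CPM in hair matrix-like and 416, 412 and 449 CPM in epidermis-like cells. Its log2 change was -1.07 ± 0.07 (adjusted p 1.58e-06), and -0.59 with total UMIs. Ndufa6, an accessory subunit of complex I, had 223, 211 and 225 against 244, 241 and 249 CPM (log2 -0.64 ± 0.07, adjusted p 5.54e-05), and -0.15 with total UMIs. These genes and Ndufa4l2 were lower in 3 of 3 libraries by CPM.

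For Ndufv3, Uqcrc1 and Ndufb11, the lower calls rested on the scaling. Ndufv3, in the NADH-oxidizing arm of complex I, had 108, 93.2 and 89.6 CPM in hair matrix-like and 104, 91.5 and 111 CPM in epidermis-like cells. The core subunit Uqcrc1 of complex III had 156, 149 and 160.1 against 154, 142 and 174 CPM. Ndufb11, in the membrane arm of complex I, had 276, 277 and 287 against 281, 257 and 297 CPM. Their edgeR log2 changes were -0.56, -0.50 and -0.47 under TMM (adjusted p 5.50e-04, 2.95e-04 and 2.42e-04) but -0.08, -0.01 and 0.01 with total UMIs. In CPM these genes were at about the same level in both classes, apart from Ndufv3 in AA+Ab (89.6 against 111 CPM). Most members were higher in the hair matrix.

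Among the most abundant members, the same holds for Cox4i1 and Uqcrh. Cox4i1 had 1022, 1051 and 1197 CPM in hair matrix-like and 982, 982 and 1110.4 CPM in epidermis-like cells, and Uqcrh 631, 607 and 635 against 597, 555 and 632 CPM. Under TMM both were called lower, with log2 changes of -0.40 and -0.41 (adjusted p 4.38e-04 and 4.73e-04), and with total UMIs the changes were 0.09 and 0.07. Ndufb9, the most abundant complex I member, had 326, 293 and 335 against 252, 225 and 274 CPM and gave -0.14 (adjusted p 0.103) under TMM and 0.35 (adjusted p 8.86e-04) with total UMIs. Atp5h (761, 706 and 752 against 522, 487 and 549 CPM) and Atp5g2 (789.6, 760.1 and 926 against 537, 508 and 604 CPM) passed in neither direction under TMM, at 0.03 (adjusted p 0.724) and 0.10 (adjusted p 0.181). Cox8a (990.4, 779.5 and 904 against 558, 429 and 518 CPM) at 0.35 and Uqcrb (590.3, 507 and 519.6 against 286, 241 and 298 CPM), which helps form the ubiquinone site of complex III, at 0.49 were called higher (adjusted p 0.00110 and 4.74e-04).

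In complex II, Sdhb, the iron-sulfur subunit, had 143, 138 and 159 CPM in hair matrix-like against 64.0, 62.0 and 72.1 CPM in epidermis-like cells, and a log2 change of 0.67 ± 0.07 (adjusted p 4.20e-05). The membrane anchor Sdhd had 89.8, 81.3 and 88.5 against 48.8, 38.9 and 46.4 CPM (0.48 ± 0.07, adjusted p 3.77e-04). The other anchor, Sdhc, had 65.4, 63.5 and 71.4 against 43.9, 37.1 and 44.3 CPM (0.20 ± 0.07, adjusted p 0.0380). The catalytic subunit Sdha, with 66.1, 69.9 and 73.1 against 47.0, 42.3 and 43.5 CPM, did not pass under TMM (0.17 ± 0.08, adjusted p 0.0724). All 4 genes were higher in 3 of 3 libraries by CPM, and all 4 were called higher with total UMIs.

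**Figure D2:**
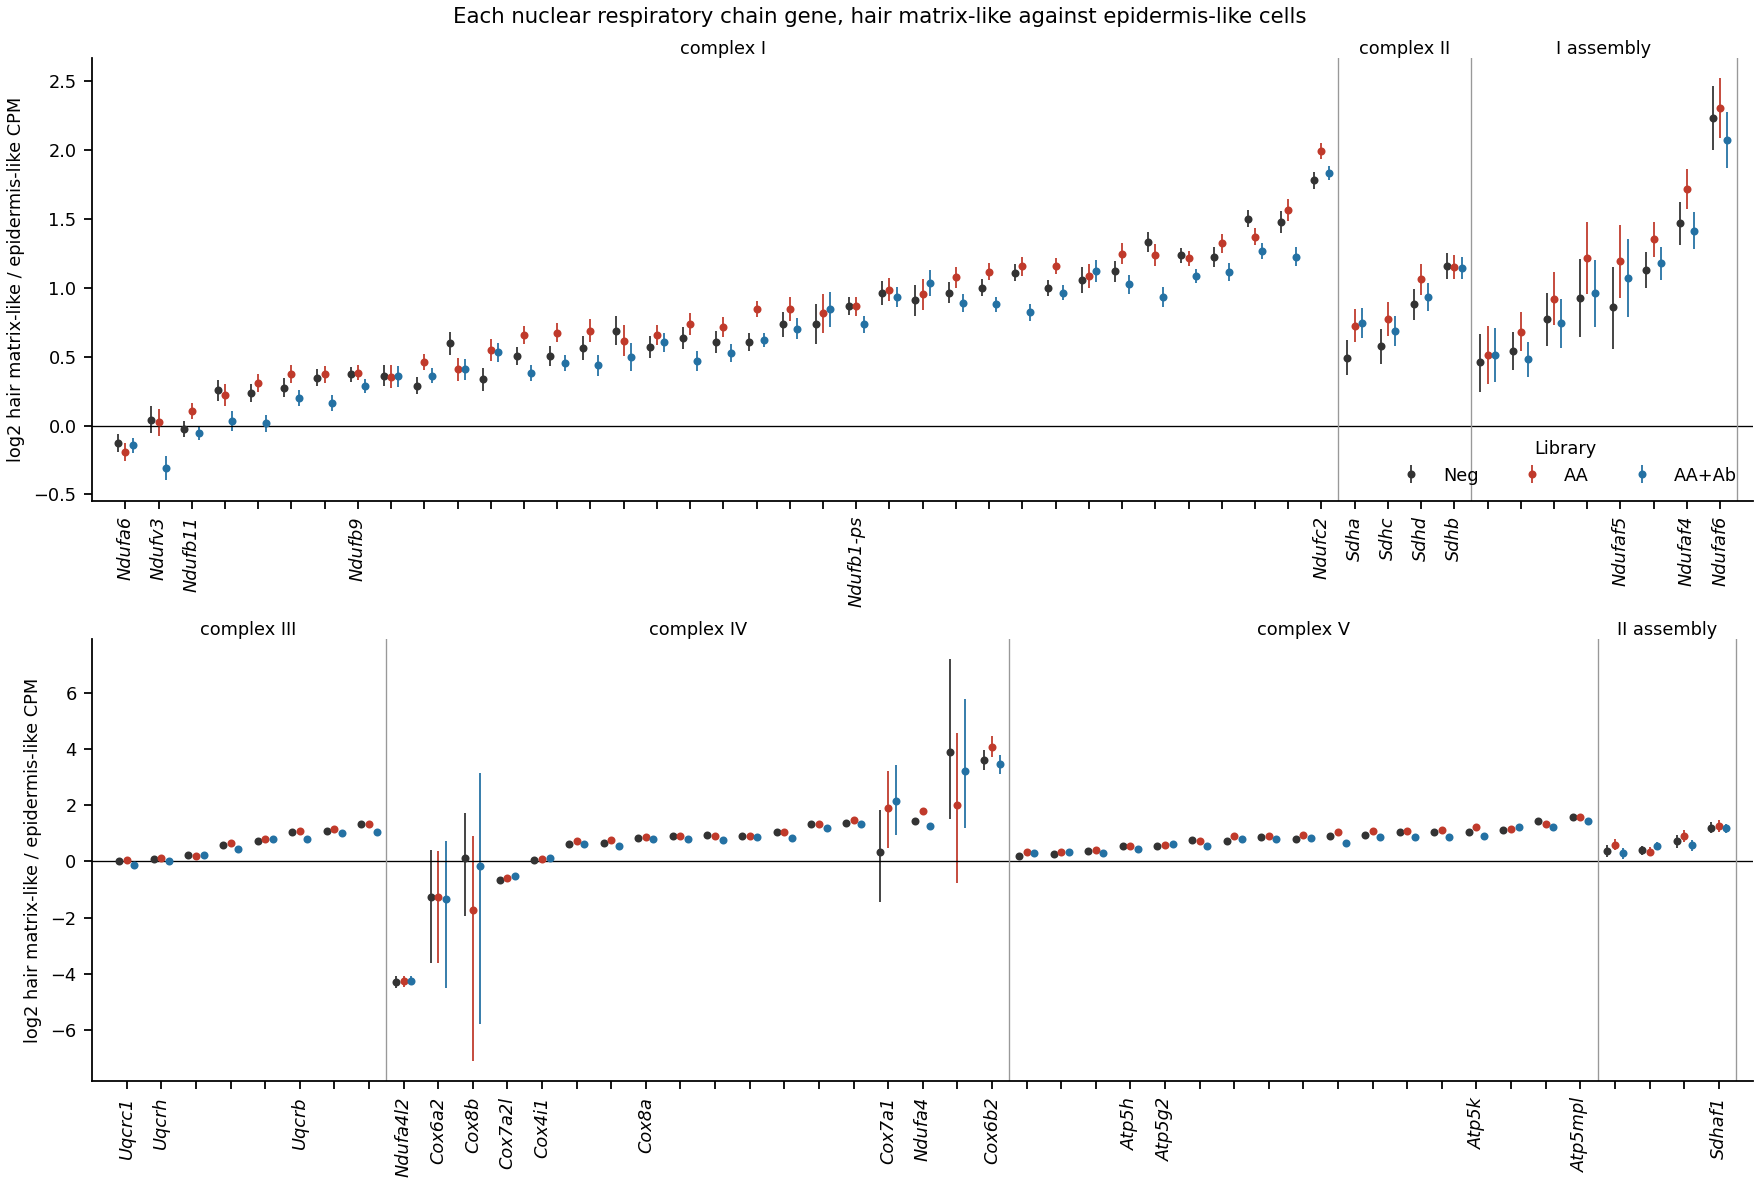
Log2 ratio of CPM in hair matrix-like to epidermis-like cells for 96 members grouped by role, 1 point per library with exact conditional 95% intervals (counting error only), 0 marking equal CPM, and symbols given for genes chosen by the naming rule and for complex II. Ndufa4l2 lies at -4.30, -4.26 and -4.25 in Neg, AA and AA+Ab and Cox6b2 at 3.62, 4.09 and 3.46.

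Complex IV has several subunits with another form used in muscle, lung or testis. The muscle forms followed the skeletal muscle-like cells, whose leading genes include Acta1 and Ckm. These 150 cells held 89.5% of the 2130 UMIs of Cox6a2, 83.6% of the 870 UMIs of Cox8b and 52.3% of the 553 UMIs of Cox7a1. There Cox6a2 stood at 1276, 1622 and 2181.5 CPM in Neg, AA and AA+Ab and its partner Cox6a1 at 72.2, 43.1 and 38.7 CPM, while over all cells Cox6a1 had 195, 178 and 200.4 CPM and Cox6a2 7.04, 4.56 and 4.81 CPM. The low Cox6a2 counts elsewhere, such as 88 UMIs over all epidermis-like cells, cannot be told apart from free RNA of muscle. Cox6a2 was called lower in hair matrix-like cells (edgeR log2 -1.75 ± 0.43, adjusted p 0.00569, and -1.27 with total UMIs), from 3, 3 and 2 UMIs there, and the same limit holds for this call.

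Cox6b2 was found in skin outside its known site: 42.1% of its 5132 UMIs lay in cluster 3, 15.9% in hair matrix-like and 12.4% in outer bulge and root sheath-like cells. Its partner Cox6b1, at 437, 364 and 434 CPM over all cells of Neg, AA and AA+Ab, remained far more abundant. Cox4i2, known from lung and from the response to low oxygen, had 128 UMIs in all, of which 28.9% lay in cluster 16. Cox7b2 had 9 UMIs and Cox8c 1 UMI over all libraries. Their partners Cox7b and Cox8a reached 329.6 and 689.6 CPM, and Cox7a2, partner of Cox7a1, 410.2 CPM.

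Genes of neighbouring pathways were read beside the members, although they could enter the clustering, so their counts are a description, to be read beside 38% of all genes called higher and 39.2% lower. The mitochondrial ribosome followed the members, with a mean log2 ratio of summed CPM of 0.95 ± 0.07 (SD, n = 3 libraries) between hair matrix-like and epidermis-like cells, and edgeR counts of 61 of 78 higher, 5 lower. Cytochrome c with import and assembly genes gave 1.00 ± 0.08 (22 of 38 higher, 10 lower) and the tricarboxylic acid cycle 0.73 ± 0.02 (9 of 16 higher, 4 lower). Fatty acid oxidation gave -0.08 ± 0.07 (0 of 13 higher, 11 lower) and glycolysis 0.18 ± 0.05 (4 of 17 higher, 12 lower). The antioxidant list was at -0.02 ± 0.06 (4 of 8 higher, 3 lower). The cytosolic ribosome, a large part of all UMIs at 25.4%, 23.5% and 26.5% in Neg, AA and AA+Ab, was at -0.14 ± 0.02 (3 of 82 higher, 76 lower). With total UMIs, where 53.5% of all genes were higher and 25.1% lower, the mitochondrial ribosome had 75 of 78 higher and 0 lower, import and assembly 28 of 38 higher and 2 lower and the tricarboxylic acid cycle 13 of 16 higher and 0 lower. The cytosolic ribosome then had 16 of 82 higher and 39 lower, fatty acid oxidation 2 of 13 higher and 4 lower, glycolysis 6 of 17 higher and 7 lower and the antioxidant list 5 of 8 higher and 3 lower. By summed CPM, the lists of the mitochondrial ribosome, import and the tricarboxylic acid cycle were thus higher in hair matrix-like cells of 3 of 3 libraries. So was the glycolysis sum, by less (log2 0.24, 0.15 and 0.16), while fatty acid oxidation and the antioxidants were not. With total UMIs, the median log2 change of single glycolysis genes was -0.10, beside 0.47 over all genes.

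The 14 regulators of mitochondrial biogenesis summed to a mean log2 ratio of 0.33 ± 0.16, with 9 called higher and 4 lower in hair matrix-like cells, beside 38% and 39.2% of all genes. With total UMIs 10 were higher and 3 lower, beside 53.5% and 25.1%. Nrf1, a transcription factor of many respiratory chain genes, had 88.9, 103 and 74.96 CPM in hair matrix-like and 43.8, 43.2 and 34.4 CPM in epidermis-like cells (edgeR log2 0.65 ± 0.07, adjusted p 6.00e-05). Tfam, which packages mitochondrial DNA, had 37.0, 43.6 and 43.5 against 19.0, 17.6 and 19.8 CPM (0.65 ± 0.08, adjusted p 1.24e-04). The coactivator Ppargc1a was low and in the other direction, with 0.791, 0.645 and 0.504 against 4.72, 3.85 and 3.19 CPM (-3.08 ± 0.24, adjusted p 5.19e-06), as were the receptor Esrra (-1.35) and the growth regulator Myc (-2.76). The regulators thus divided, with Nrf1 and Tfam on the side of the members.

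The 13 mt-encoded subunits, whose transcripts come from mitochondrial DNA, summed to 36014, 31795 and 22385 CPM in hair matrix-like and 21369, 19453 and 16210.5 CPM in epidermis-like cells of Neg, AA and AA+Ab. The mean log2 ratio of 0.64 ± 0.15 (SD, n = 3 libraries) was close to that of the nuclear members, with a wider spread. By edgeR under TMM, 6 of 13 were higher and 1 lower (mt-Co1, a core subunit of complex IV), a share higher that is not far from the 38% of all genes. With total UMIs 13 of 13 were higher, beside 53.5% of all genes. The limit of 10% on mt- UMIs acts on these genes directly. In skeletal muscle-like cells the balance differed, since mt-encoded genes gave 18729.9, 10459.8 and 4162 CPM beside the high nuclear sums.

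Between libraries, the ratio of AA to Neg asks about the disease model and that of AA+Ab to AA about the antibody. Both use the AA library, and AA to Neg shares Neg with the ratio of AA+Ab to Neg. Over all cells the members' summed CPM was 0.844 times Neg in AA (95% interval 0.843 to 0.845), 1.16 times AA in AA+Ab (1.16 to 1.17) and 0.983 times Neg in AA+Ab (0.981 to 0.984), with intervals for counting error only. The mt-encoded genes ran differently, at 0.893, 0.815 and 0.728 times, and so were lowest in AA+Ab. The sums of the cytosolic ribosome were 0.926, 1.13 and 1.04 times. The median share of mt- UMIs per cell was 2.35%, 2.17% and 1.81% in Neg, AA and AA+Ab. With 1 pool per group, differences in model, antibody, pool and handling cannot be told apart.

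**Figure D3:**
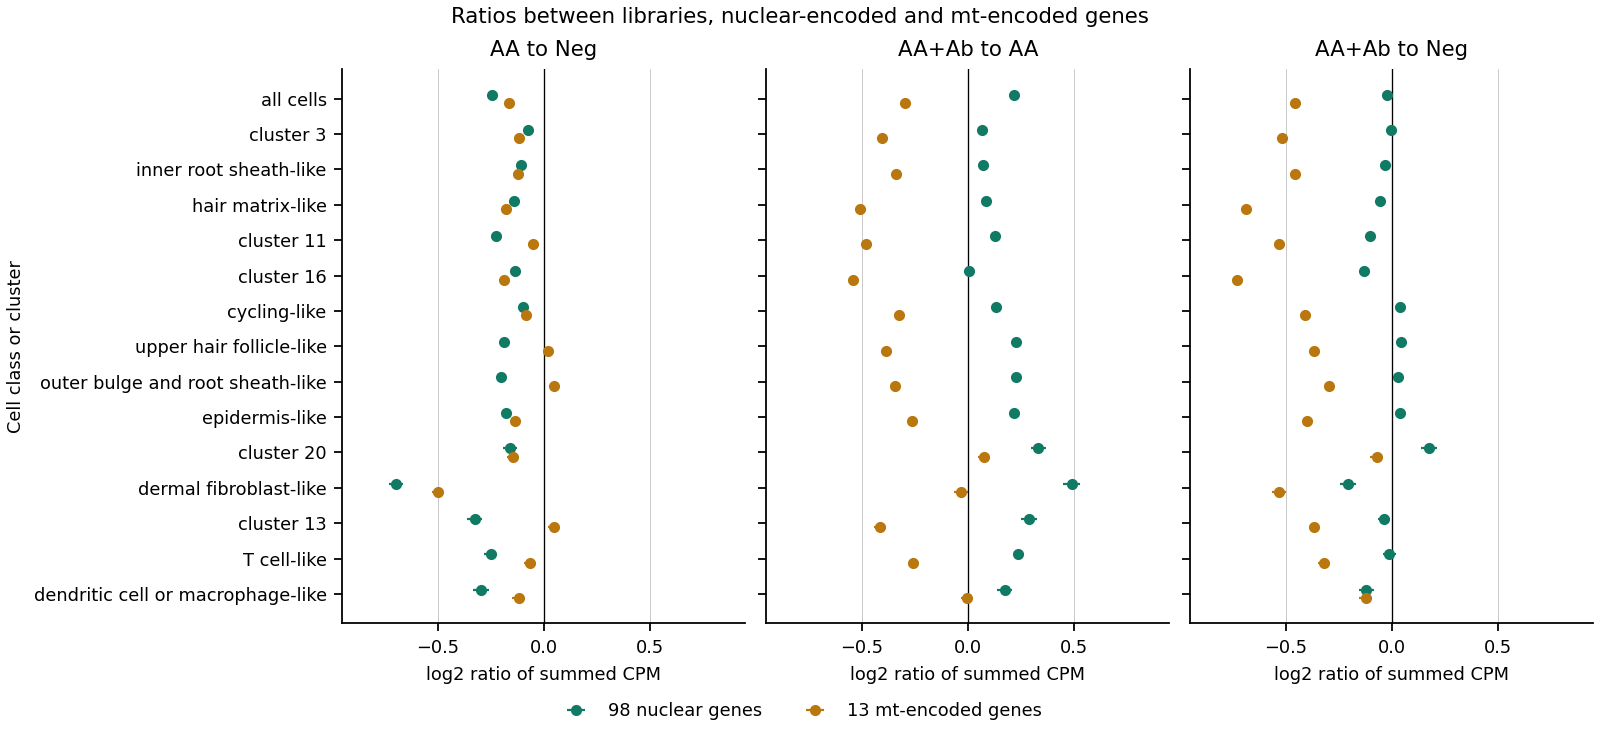
Log2 ratios of summed CPM between libraries by class or unnamed cluster for the 98 nuclear members and the 13 mt-encoded genes, with exact conditional 95% intervals (counting error only). Among these classes, each with at least 50 cells in every library, the nuclear members lie below 0 for AA to Neg, and for AA+Ab to AA they lie above 0 in most while mt-encoded genes lie mostly below 0.

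Within classes of at least 50 cells in every library, AA was again the lowest in most. Taking basal-like and suprabasal-like cells apart, the AA to Neg ratio was below 1 beyond counting error in 15 of 15 classes or clusters, from 0.617 in dermal fibroblast-like cells to 0.951 in cluster 3. The AA+Ab to AA ratio was above 1 in 14 of 15, up to 1.40 in dermal fibroblast-like cells, and in cluster 16 it was 1.00 with an interval that holds 1. Other values differed together with these ratios. The cytosolic ribosome was below 1 for AA to Neg and above 1 for AA+Ab to AA in all of these classes, for AA to Neg at 0.758 in T cell-like cells, 0.760 in dendritic cell or macrophage-like cells and 0.704 in cluster 13. Median UMIs in Neg, AA and AA+Ab were 21921, 12412 and 14577.5 in upper hair follicle-like cells and 26331, 17628.5 and 20871 in cluster 11. Dermal fibroblast-like cells had median UMIs of 9225, 5452.5 and 7757 and median genes of 3289, 2267 and 2537. The cytosolic ribosome there gave 0.755 for AA to Neg and 1.36 for AA+Ab to AA, and mt-encoded genes 0.707 and 0.978, and the member ratios of the classes cannot be told apart from these differences. The AA+Ab to Neg ratio was below 1 beyond counting error in 8 classes and above 1 in 6. In T cell-like cells it was 0.992 with an interval that holds 1. Of the classes with fewer cells, skeletal muscle-like cells had a higher sum in AA than in Neg, at 1.199 times with median UMIs of 4172, 2483.5 and 1958 in Neg, AA and AA+Ab. Monocyte or neutrophil-like cells (27, 15 and 95 cells) gave 8749.8, 9004 and 11948 CPM. Their counting intervals in Neg (8212 to 9314) and AA (8357 to 9689) overlap. Hair matrix-like cells gave 0.907, 1.06 and 0.963 for AA to Neg, AA+Ab to AA and AA+Ab to Neg, and epidermis-like cells 0.883, 1.16 and 1.03. The mt-encoded genes of hair matrix-like cells gave 0.883, 0.704 and 0.622, and those of epidermis-like cells 0.910, 0.833 and 0.759. Weighting the cells to the class shares of Neg gave 0.908, 1.11 and 1.00, so that AA was lowest also at equal class shares.

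The epidermis-like class was made up differently in the libraries. Basal-like cluster 0, led by Il20ra, held 59.0%, 44.3% and 67.1% of basal-like cells in Neg, AA and AA+Ab, with 18806, 17402 and 18932 member CPM. Basal-like cluster 1 held 41.0%, 55.7% and 32.9%, with 15484, 13835 and 15415 CPM. Suprabasal-like cluster 4 gave 18199, 16796 and 19141 CPM, and cluster 12 gave 19795, 17766 and 20314 CPM. The AA value was the lowest in each of these clusters, as it was in the small suprabasal-like cluster 27 with 20592, 18223 and 20199 CPM. Cluster 17, led by interferon-induced genes such as Iigp1 and Isg15 and left unnamed, held 8, 295 and 42 cells and gave 15742, 17159 and 18368 CPM, with AA above Neg.

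Gene by gene, over all cells, 40 of the 95 members with at least 50 UMIs in every library were lower in AA than in Neg by at least 1.2 times (42.1%, against 21.1% of all genes with as many UMIs), and 1 was higher (against 15.4%). At any size, 93 of 95 members were lower, beside 57.6% of all genes, and the median log2 ratio was -0.25 beside -0.05. For AA+Ab to AA, 22 of 95 were higher by at least 1.2 times (23.2%, against 17.5%), a share not far from the background, and 1 was lower (against 22.6%). At any size 90 of 95 were higher, beside 50.8% of all genes. For AA+Ab to Neg, 0 of 95 were higher (against 7.6%) and 8 lower (8.42%, against 17.8%). At any size 44 of 95 were higher (46.3%, beside 40.9% of all genes) and 51 lower (53.7%, beside 59.1%). The ratios were thus mostly small, and members shared a direction in the ratios that use AA but not in AA+Ab to Neg.

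In epidermis-like cells, 27 of 92 members were lower in AA than in Neg by at least 1.2 times (29.3%, against 23.9% of all genes) and 0 higher (against 11.9%). For AA+Ab to AA, 26 of 92 were higher (28.3%, against 19.3%) and 0 lower (against 19.5%), so at this size the larger sides lie not far above the background. At any size 88 of 92 were lower in AA than in Neg (95.7%, beside 64.2%) and 89 higher in AA+Ab than in AA (96.7%, beside 55.0%). For AA+Ab to Neg, by at least 1.2 times, 1 was higher (against 6.05%) and 3 lower (against 20.6%), and at any size 56 were higher (60.9%, beside 40.1%). In hair matrix-like cells, 15 of 92 were lower in AA than in Neg (16.3%, against 7.43%) and 0 higher (against 14.5%). For AA+Ab to AA, 4 of 92 were higher (against 8.81%) and 1 lower (against 24.8%), and for AA+Ab to Neg 2 were higher (against 10.9%) and 11 lower (against 18.4%). At any size 74 of 92 were lower in AA than in Neg there (80.4%, beside 42.3%) and as many higher in AA+Ab than in AA (beside 44.0%), while 44 were higher in AA+Ab than in Neg (47.8%, beside 48.2%). The AA to Neg ratio of summed CPM was alike across complexes over all cells, at 0.842 for complex I, 0.850 for complex II, 0.841 for complex III, 0.852 for complex IV and 0.840 for complex V.

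Cox6a2, Atp5k, Ndufb1-ps and Cox8a had the lowest AA to Neg ratios. Cox8a, at 789, 570.0 and 721 CPM in Neg, AA and AA+Ab, had a ratio of 0.723 (95% interval 0.716 to 0.729). Atp5k, subunit e of complex V, had 199.6, 137 and 154 CPM and a ratio of 0.688 (95% interval 0.675 to 0.701), and Ndufb1-ps, a complex I gene whose symbol marks it as a pseudogene, 209, 148 and 157 CPM and 0.709 (95% interval 0.696 to 0.722). In Atp5k and Ndufb1-ps, AA+Ab stayed nearer to AA than to Neg. The ratio of Cox6a2, 0.648 (95% interval 0.584 to 0.720), rests on the few muscle-like cells, which held 595571 UMIs in Neg and 324863 in AA. Within these cells Cox6a2 ran the other way, with the higher CPM in AA.

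At the other end stood Ndufa4l2, with 177, 235 and 207 CPM, an AA to Neg ratio of 1.32 (95% interval 1.30 to 1.35) and the only member higher by at least 1.2 times. Within epidermis-like cells it had 354, 388 and 436 CPM, so the order of AA and AA+Ab differed there. Cluster 17, with 295 of its 345 cells in AA, held 3.59% of the gene's UMIs. Cox7a2l (351, 358 and 384 CPM, ratio 1.02), Ndufa6 (225, 223 and 224 CPM, 0.992) and Cox4i1 (0.989) were nearly level between Neg and AA. Ndufa4l2, Cox7a2l and Ndufa6, lower by CPM in hair matrix-like than in epidermis-like cells, were thus also those with the highest AA to Neg ratios.

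From AA to AA+Ab, Ndufa4 had the highest ratio, 1.39 (95% interval 1.37 to 1.40), with 396, 296 and 410.3 CPM in Neg, AA and AA+Ab. Sdhaf1, which protects the iron-sulfur subunit of complex II during assembly, had 20.6, 15.5 and 21.4 CPM (1.38), Ndufc2 208, 170.2 and 225 CPM (1.32) and Cox6b2 14.4, 10.8 and 14.0 CPM (1.29). In all 4 the AA library was the lowest over all cells and AA+Ab was near Neg. Cluster 3, which held 42.1% of the UMIs of Cox6b2, made up 738 of 6582, 727 of 10433 and 1027 of 9832 cells. Within hair matrix-like cells Cox6b2 was lowest in AA+Ab, while Ndufa4 and Ndufc2 were lowest in AA. In epidermis-like cells these genes were all lowest in AA. The part of class shares in the single-gene ratios was not tested. The lowest ratios were those of the scarce Cox8b (2.88, 2.15 and 1.68 CPM, 0.781 (95% interval 0.655 to 0.931)) and Cox7a1 (1.76, 1.33 and 1.17 CPM, 0.879 (95% interval 0.707 to 1.09)), of Ndufaf5, a complex I assembly factor (10.9, 10.7 and 9.13 CPM, 0.854), and of Ndufa4l2 (0.882). The few muscle-like cells held 83.6% of the UMIs of Cox8b and 52.3% of those of Cox7a1. All UMIs of these cells numbered 324863 in AA and 284208 in AA+Ab.

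Promoter sequences of the members were searched for motif letters beside those of all genes. RefSeq promoters on GRCm38.p6, from 250 bases before to 50 bases after the start, were matched for 81 of 98 members, 79 by symbol and 2 by a synonym. The other 17 members, among them Cox4i1, Ndufa4l2 and Ndufaf6, were not matched by symbol or synonym. On either strand, the NRF1 core CGCATGCG was found in 10 members (12.3%) and in 1.91% of all 27025 promoters, the ETS core CCGGAAG in 21 (25.9%, against 9.12%), the YY1 core AAGATGGC in 10 (12.3%, against 2.88%) and the TATA letters TATAAA in 9 (11.1%, against 14.2%). At least 1 of the first 3 was present in 36 members (44.4%) and in 13.1% of all promoters, and a promoter can hold several. By edgeR call, 23 of the 46 matched members higher in hair matrix-like cells, 2 of 13 lower and 11 of 20 not called held at least 1 of the 3, and 2 matched members were not tested. A match is a description of letters, not a bound site.

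Promoters of 4 members are printed to show both directions with and without the NRF1 letters, which are in capitals. Ndufaf4 (higher in hair matrix-like cells, chr4:24897833-24898132, + strand) and Uqcrc1 (lower under TMM only, chr9:108936398-108936697, + strand) hold them, while Cox6b2 (higher, chr7:4753045-4753344, - strand) and Cox7a2l (lower, chr17:83514284-83514583, - strand) hold none of the 4 motifs.
Ndufaf4: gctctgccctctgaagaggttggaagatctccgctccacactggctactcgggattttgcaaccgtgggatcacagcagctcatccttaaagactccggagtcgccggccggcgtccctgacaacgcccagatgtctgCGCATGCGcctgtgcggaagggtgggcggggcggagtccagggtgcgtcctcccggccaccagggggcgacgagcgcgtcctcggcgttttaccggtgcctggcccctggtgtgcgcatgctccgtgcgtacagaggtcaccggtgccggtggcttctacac
Uqcrc1: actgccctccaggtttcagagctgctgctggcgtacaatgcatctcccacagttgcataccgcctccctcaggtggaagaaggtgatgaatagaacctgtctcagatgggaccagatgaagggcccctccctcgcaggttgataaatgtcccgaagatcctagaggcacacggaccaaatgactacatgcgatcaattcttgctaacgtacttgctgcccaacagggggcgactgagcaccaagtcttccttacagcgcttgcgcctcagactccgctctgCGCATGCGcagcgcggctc
Cox6b2: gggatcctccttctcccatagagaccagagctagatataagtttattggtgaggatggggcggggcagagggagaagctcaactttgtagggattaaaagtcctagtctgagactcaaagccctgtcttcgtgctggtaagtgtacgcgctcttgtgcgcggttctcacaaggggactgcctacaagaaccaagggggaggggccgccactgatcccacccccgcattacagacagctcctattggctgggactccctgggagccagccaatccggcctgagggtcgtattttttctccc
Cox7a2l: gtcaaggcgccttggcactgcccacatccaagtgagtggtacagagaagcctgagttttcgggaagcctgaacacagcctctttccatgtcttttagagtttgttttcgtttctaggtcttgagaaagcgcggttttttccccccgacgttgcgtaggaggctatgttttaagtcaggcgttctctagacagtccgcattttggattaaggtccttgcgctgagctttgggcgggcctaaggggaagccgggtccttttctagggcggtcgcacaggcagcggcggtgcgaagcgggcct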

How the data were processed

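The authors aligned and counted reads of Chromium Next GEM Single Cell 3′ v3.1 libraries. The submitters' processing notes name Cell Ranger 7.2.0, FastQC 0.11.7 and the build mm10. The values deposited by the authors are unscaled UMI counts, 1 value for a gene in a cell barcode, and were used as such.

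Cells with at most 10% mt- UMIs and at least 200 genes were kept, and doublets were kept in the main values. Counts of the 3 libraries were log-normalized, and 2000 variable genes (without members and mt- genes), 30 principal components and 20 neighbours gave 28 Leiden clusters at resolution 0.8 (leidenalg 0.10.2, scikit-learn 1.9.0, numpy 2.4.6, Python 3.11.15). A cluster took a class name when at least 3 markers of the class were in at least 25% of its cells at 2 times the level of other cells or more, at least 50% of the list for classes other than keratinocytes. A tie, low UMIs or leading genes of another class left it unnamed. These thresholds were set after the clusters were seen. Names rest on rebuilt clusters, so values by class may differ from the study's own.

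UMIs were summed by library and class and scaled to a total of 1000000 (CPM), with exact Poisson and conditional intervals of 95% (scipy 1.17.1). edgeR 4.0.16 (R 4.3.3) compared hair matrix-like with epidermis-like sums of the same libraries with library as a block, TMM, a filter on low counts and Benjamini-Hochberg adjustment over all genes. Its code was tested on simulated data, and the SE of a log2 change was taken from the F statistic. Alternatives were DESeq2 1.42.0, other limits on mt- UMIs and genes, scored doublets removed, other denominators, cell means, members left out, other clusters or marker gates, thinned cells and 1 library left out, with a UMI range, total-UMI scaling, cluster 3 added to the hair matrix and both low-UMI clusters left out chosen after seeing the data. Differences between libraries were described by a size of 1.2 times, chosen after seeing the data, with no test. Gene positions are from the GENCODE vM21 annotation of GRCm38 and promoters from RefSeq. Figures were drawn with matplotlib 3.10.9.

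Members and lists were chosen with earlier results of these data known. Named genes were the 2 most abundant members of each complex, the 6 members at the top and the 6 at the bottom of the hair matrix to epidermis ratio (at least 50 UMIs in both classes of every library), the 4 at each end of the AA to Neg and AA+Ab to AA ratios (at least 50 UMIs), the tissue isoforms with their partners, and all complex II subunits. Genes of other lists named in the text were chosen after their values were seen.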

Additional observations from a re-analysis of the deposited data

Results flagged for a closer look

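Between libraries, not all classes had the direction of the epidermis-like cells. In skeletal muscle-like cells the summed member CPM in AA was 1.199 times that in Neg (95% interval 1.18 to 1.22, counting error only, from 58 and 51 cells), whereas in epidermis-like cells it was 0.883 times. Median UMIs of the skeletal muscle-like cells were 4172 in Neg and 2483.5 in AA, median genes 1217 and 829.5, and mt-encoded CPM 18729.9 and 10459.8, so the ratio cannot be told apart from these differences. By cell the members were nearer, with a median of 60709 CPM in Neg, 62659 in AA and 58823.5 in AA+Ab. In hair matrix-like cells the sum in AA+Ab was 0.963 times that in Neg (0.959 to 0.968), whereas in epidermis-like cells it was 1.03 times (1.02 to 1.03). It was not alone in this, since 8 of 15 classes or clusters with at least 50 cells in every library lay below 1 beyond counting error for AA+Ab to Neg. Each class gave 1 value per group, and neither difference was tested.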

How the results depend on the processing

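The main limit is 1 pooled library per group, so that no ratio between libraries has an error beyond counting. Classes come from rebuilt clusters, and the hair matrix-like class also holds all markers of division, with few cells that have none. Percoll and mesh steps limit which cells were seen, and free RNA was not removed. Scaling sets the direction of several members between classes, and near-identical gene copies share UMIs. The cause of each difference between alternatives was not tested. No cluster was named hair matrix at resolution 0.4, so that alternative was not run. Markers per cell gave 298, 461 and 499 hair matrix-like cells in Neg, AA and AA+Ab. Of these, 127, 226 and 244 were in the hair matrix-like cluster, so this alternative drew largely on other cells.

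The mean log2 ratio of 0.69 between hair matrix-like and epidermis-like cells was 0.61 with CPM without mt-, ribosomal, hemoglobin and keratin genes, 0.76 with clusters made with members and mt- genes, 0.44 in cells with no cycling marker other than Stmn1, 0.59 against suprabasal-like cells alone and 0.78 in cells of 15000 to 30000 UMIs (chosen after seeing the data). For complex II assembly factors it was -0.0492 in cells with no cycling marker other than Stmn1, the reverse of the main direction. Over the complexes, 62 of 91 alternatives were alike, 28 differed in size and 1 reversed.

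The AA to Neg ratio of 0.844 was 0.852 with a limit of 5% mt- UMIs, 0.852 with scored doublets removed, 0.820 with CPM without mt-, ribosomal, hemoglobin and keratin genes, 0.808 with the mean of cell CPM, 0.835 with the 5 most abundant members left out, 0.908 with cells weighted to the class shares of Neg and 0.848 with both low-UMI clusters left out (chosen after seeing the data). Within classes it was 0.841 in T cell-like cells, 0.935 in cycling-like cells, 0.815 in dendritic cell or macrophage-like cells, 0.617 in dermal fibroblast-like cells, 0.883 in epidermis-like cells, 0.907 in hair matrix-like cells, 0.929 in inner root sheath-like cells, 0.869 in outer bulge and root sheath-like cells, 0.854 in cluster 11, 0.798 in cluster 13, 0.911 in cluster 16, 0.897 in cluster 20, 0.951 in cluster 3 and 0.880 in upper hair follicle-like cells. The AA+Ab to AA ratio of 1.16 was 1.17 with a limit of 5% mt- UMIs, 1.16 with no limit on mt- UMIs, 1.15 with scored doublets removed, 1.21 with CPM without mt-, ribosomal, hemoglobin and keratin genes, 1.16 with the 5 most abundant members left out, 1.11 with cells weighted to the class shares of Neg and 1.16 with both low-UMI clusters left out (chosen after seeing the data). Within classes it was 1.18 in T cell-like cells, 1.10 in cycling-like cells, 1.13 in dendritic cell or macrophage-like cells, 1.40 in dermal fibroblast-like cells, 1.16 in epidermis-like cells, 1.06 in hair matrix-like cells, 1.05 in inner root sheath-like cells, 1.17 in outer bulge and root sheath-like cells, 1.09 in cluster 11, 1.22 in cluster 13, 1.00 in cluster 16, 1.26 in cluster 20, 1.05 in cluster 3 and 1.17 in upper hair follicle-like cells. The AA+Ab to Neg ratio of 0.983 was 0.998 with a limit of 5% mt- UMIs, 0.988 with CPM without mt-, ribosomal, hemoglobin and keratin genes, 0.940 with the mean of cell CPM, 0.970 with the 5 most abundant members left out and 1.00 with cells weighted to the class shares of Neg. Within classes it was 0.992 in T cell-like cells, 1.03 in cycling-like cells, 0.920 in dendritic cell or macrophage-like cells, 0.866 in dermal fibroblast-like cells, 1.03 in epidermis-like cells, 0.963 in hair matrix-like cells, 0.978 in inner root sheath-like cells, 1.02 in outer bulge and root sheath-like cells, 0.933 in cluster 11, 0.975 in cluster 13, 0.913 in cluster 16, 1.13 in cluster 20, 0.997 in cluster 3 and 1.03 in upper hair follicle-like cells.

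The 56 of 94 members called higher, beside 38% of all genes, were 52 of 94 with DESeq2 (beside 34.4%), 47 of 98 with no filter (beside 23.4%) and 63 of 93 in a fit over all keratinocyte classes (beside 40.1%). They were 52 of 92 in thinned cells (beside 35.0%), 66 of 93 with classes from markers per cell (beside 37.6%) and 84 of 94 with total UMIs (chosen after seeing the data), beside 53.5%. With 1 library left out they were 51 of 94 (beside 34.8%) without Neg, 51 of 96 (beside 35.2%) without AA and 48 of 94 (beside 33.5%) without AA+Ab. The 16 of 94 called lower, beside 39.2% of all genes, were 12 of 94 with DESeq2 (beside 35.6%), 20 of 98 with no filter (beside 27.7%) and 11 of 93 in a fit over all keratinocyte classes (beside 39.7%). They were 12 of 92 in thinned cells (beside 37.4%), 8 of 93 with classes from markers per cell (beside 38.5%) and 4 of 94 with total UMIs (chosen after seeing the data), beside 25.1%. With 1 library left out they were 14 of 94 (beside 37.0%) without Neg, 15 of 96 (beside 37.2%) without AA and 13 of 94 (beside 36.9%) without AA+Ab. With total UMIs the log2 change reversed for Cox4i1 (0.0884), Ndufb11 (0.0113), Ndufb9 (0.348) and Uqcrh (0.0726). The AA to Neg ratio of Cox7a2l reversed to 0.989 with CPM without mt-, ribosomal, hemoglobin and keratin genes. Of 80 alternatives for named members between libraries, 64 were alike, 15 differed in size and 1 reversed. Of 293 between classes, 255 were alike, 22 were weaker, 12 stronger and 4 reversed.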
